A study of Mus musculus with 13 samples.

Results

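The chemokines and the interleukin-1 family of full-thickness skin were read from RNA-Seq gene counts of P4 mice. The genes were matched by symbol, and the list of symbols was chosen with earlier results of these data known. They comprise every gene named *Ccl*, *Cxcl* or *Il1r* with a number, together with *Cx3cl1*, *Xcl1*, *Il1a*, *Il1b*, *Il1rn*, *Il1rap*, *Il18*, *Il33*, *Tslp* and the IL-36 genes *Il36a*, *Il36b*, *Il36g* and *Il36rn*. Of 49315 counted genes, 53 matched, and 33 of these had at least 10 counts in 3 or more of the 6 libraries. The control group was 3 libraries labelled WT, for which the labels give no strain or sex. The other group was 3 libraries labelled DKO, from mice with Cre under the keratin 14 promoter (*K14Cre+*) and floxed alleles of both genes (*Kctd1 fl/fl* and *Kctd15 fl/fl*), whose Cre acts in keratinocytes, so that fibroblasts, vessels and immune cells of the same skin keep both genes. Both groups were whole skin of the same age, and the comparison asks how these cytokine genes differ when KCTD1 and KCTD15 are targeted in keratinocytes. The series also holds 7 epidermis libraries, but their values were 0 for every gene, and no result is given for them.

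Interleukin-1 family cytokines are alarm signals of barrier tissues. Keratinocytes store IL-1 alpha and make the IL-36 agonists, which act through the IL-36 receptor IL1RL2 together with the shared co-receptor IL1RAP, while the antagonists IL-1RN and IL-36RN occupy the receptors without signaling. Chemokines are small secreted proteins that guide leukocytes through G protein-coupled receptors. In skin some are made steadily, such as *Cxcl14* and *Ccl27a* by keratinocytes and *Cxcl12* by fibroblasts, and others appear when tissue is injured or inflamed.

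The libraries held between 11263863 and 17643043 counts on genes. Levels are given as CPM, which here are counts normalized to a library size scaled by the TMM method of edgeR, and a count of 3, the smallest taken as different from 0, corresponds to between 0.168 and 0.26 CPM. These limits cover counting error only. DKO replicate 1 was the shallowest library and stood farthest from the rest, with a median correlation of 0.973 with the other libraries against 0.979 to 0.988 for the others. The targeted genes were higher, not lower, in each library labelled DKO: *Kctd1* was at 28.5 ± 1.25 CPM (SD, n = 3) in WT and 48.9 ± 15.8 CPM in DKO, and *Kctd15* at 49.1 ± 1.02 and 87.1 ± 12.5 CPM. Neither passed edgeR's test (adjusted p = 0.342 and 0.107), whereas DESeq2 gave an adjusted p of 0.0747 for *Kctd1* and 5.91e-04 for *Kctd15*, with log2 fold changes of 0.77 and 0.81. A count over the whole gene does not show whether the floxed exon was lost, so these values do not check the labels, from which every direction given here is taken. The stress genes *Krt16* and *Stfa2* were at 15.5 ± 5.49 and 15.6 ± 2.37 CPM (SD, n = 3) in WT and at 182 ± 22.4 and 148 ± 13.2 CPM in DKO. Keratinocyte markers were present in all libraries, with a summed level of 14081 to 14279 CPM in WT and 14783 to 19296 CPM in DKO. Because the samples are bulk tissue, fewer cells of a type and less RNA per cell cannot be told apart.

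None of the chemokine and interleukin-1 family genes passed the thresholds for a difference between genotypes. Of the 33 genes with enough counts, 32 were tested with the quasi-likelihood F test of edgeR, with p-values adjusted over 20168 genes by Benjamini-Hochberg, and 0 had an adjusted p under 0.05 with an absolute log2 fold change over 1, against 14 of all genes, or 0.0694%. DESeq2 also called 0. At an unadjusted p under 0.05, 7 of the 32 were higher in DKO (*Il36g*, *Il36a*, *Ccl24*, *Ccl12*, *Il36b*, *Ccl22* and *Il18*), against 4.96% of all tested genes, and 0 were lower, against 2.54%. DESeq2, which fitted 48 members, had 8 below this p, of which 7 were higher, and edgeR with no filter on low counts had 10, of which 9 were higher. The member that was lower in both was *Cxcl15*. Without DKO replicate 1 edgeR's count of 7 was 4. The share of all genes below this p was taken only in the main fit. The groups did not overlap, with every DKO library above every WT library, for 7 genes (*Il36g*, *Il36a*, *Ccl24*, *Ccl12*, *Ccl22*, *Il1rn* and *Ccl6*), against 7.24% of all tested genes. In the other direction there were 0 such genes, against 5.96%. Without WT replicate 1 or WT replicate 3 the first count was 11, where fewer libraries make it easier. The share over all genes was not taken for those settings. Of the tested members, 24 had a positive log2 fold change and 8 a negative value, against 10670 and 9498 of all tested genes. Their median log2 fold change was 0.25, compared with 0.02 over all tested genes. Because the members were chosen with earlier results of these data known, these counts and this median are not independent support. For *Ccl12*, *Ccl24*, *Il1b*, *Cxcl9* and *Ccl28*, fewer than 3 WT libraries reached 10 counts, so these entered partly through their DKO counts. With at least 10 counts required in every library, 25 members were tested, 5 had an unadjusted p under 0.05, all higher in DKO, and the median was 0.23.

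**Figure D1:**
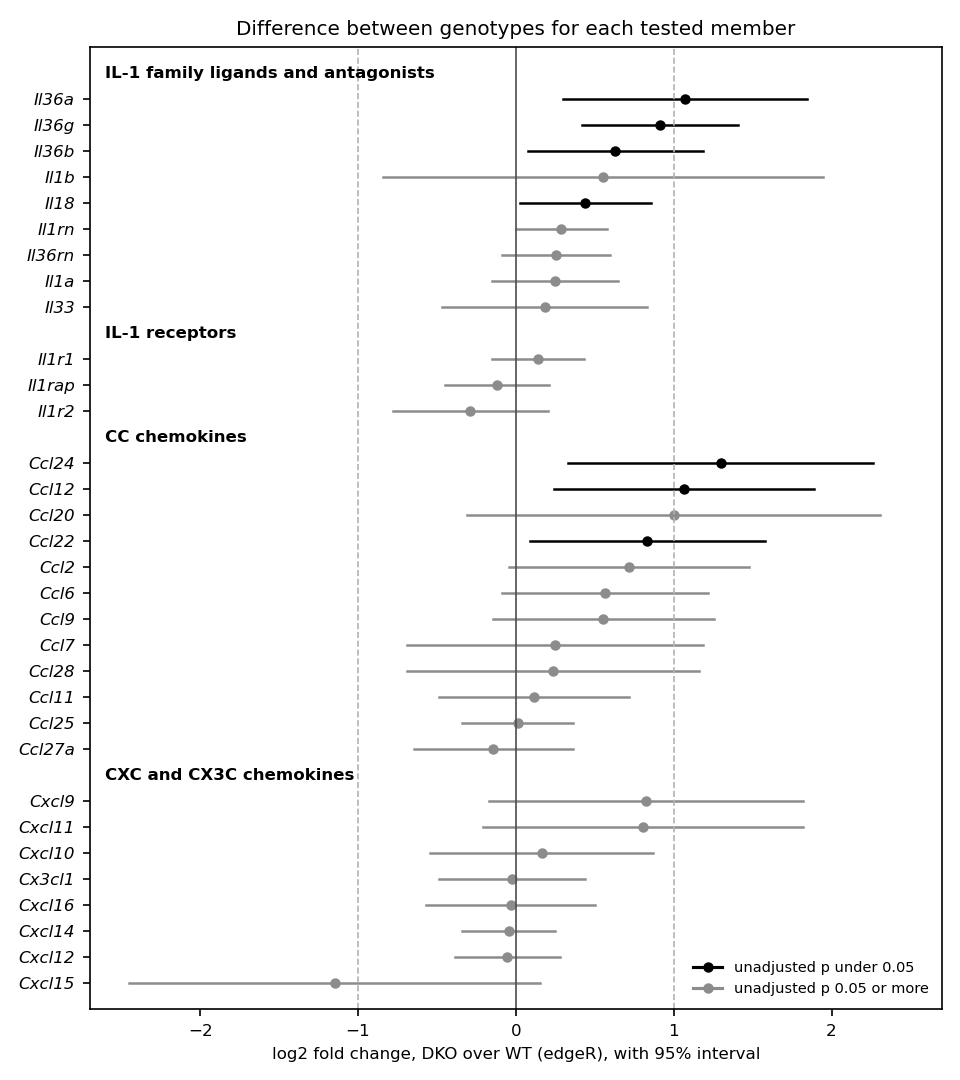
Log2 fold change (DKO over WT, x axis) of the 32 tested members, grouped by family, as points with 95% intervals from edgeR; dashed lines mark the fold threshold of 1. The 3 IL-36 agonists, *Il18*, *Ccl24*, *Ccl12* and *Ccl22*, in black, have intervals that lie above 0, and the CXC and CX3C chemokines lie on both sides of 0.

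All 9 interleukin-1 family ligands and antagonists had a positive log2 fold change, with a median of 0.44. Among the CC chemokines 11 of 12 were positive, with a median of 0.56. For the CXC and CX3C chemokines only 3 of 8 were positive, with a median of -0.03, and the 3 interleukin-1 receptor genes had a median of -0.12. These values describe the families, and the difference between them was not tested.

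By level, the family was led by *Cxcl14*, a keratinocyte chemokine of healthy skin. Divided by the counted length of the gene, its mean over the 6 libraries was 95.9 CPM per kb, with a range of 79.8 to 104. *Il18* followed at 19.8 CPM per kb, then *Il1r1* at 14.1, *Il36rn* at 13.5, *Cxcl12* at 10.5 and *Il1rn* at 9.57 CPM per kb. The antagonists *Il36rn* and *Il1rn* thus stood above each agonist they oppose in the mean, since *Il36g*, *Il36b*, *Il1a* and *Il36a* were at 9.27, 9.18, 7.26 and 5.89 CPM per kb. The ranges over libraries still overlapped between *Il36rn* and each IL-36 agonist and between *Il1rn* and *Il1a*. Apart from *Cxcl14*, whose lowest library lay above the highest of *Il18*, neighbours in the order overlapped in their ranges (31 of 32 pairs). The lowest was *Ccl28* at 0.19 CPM per kb, below *Cxcl9* at 0.341 and *Il1b* at 0.358 CPM per kb.

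**Figure D2:**
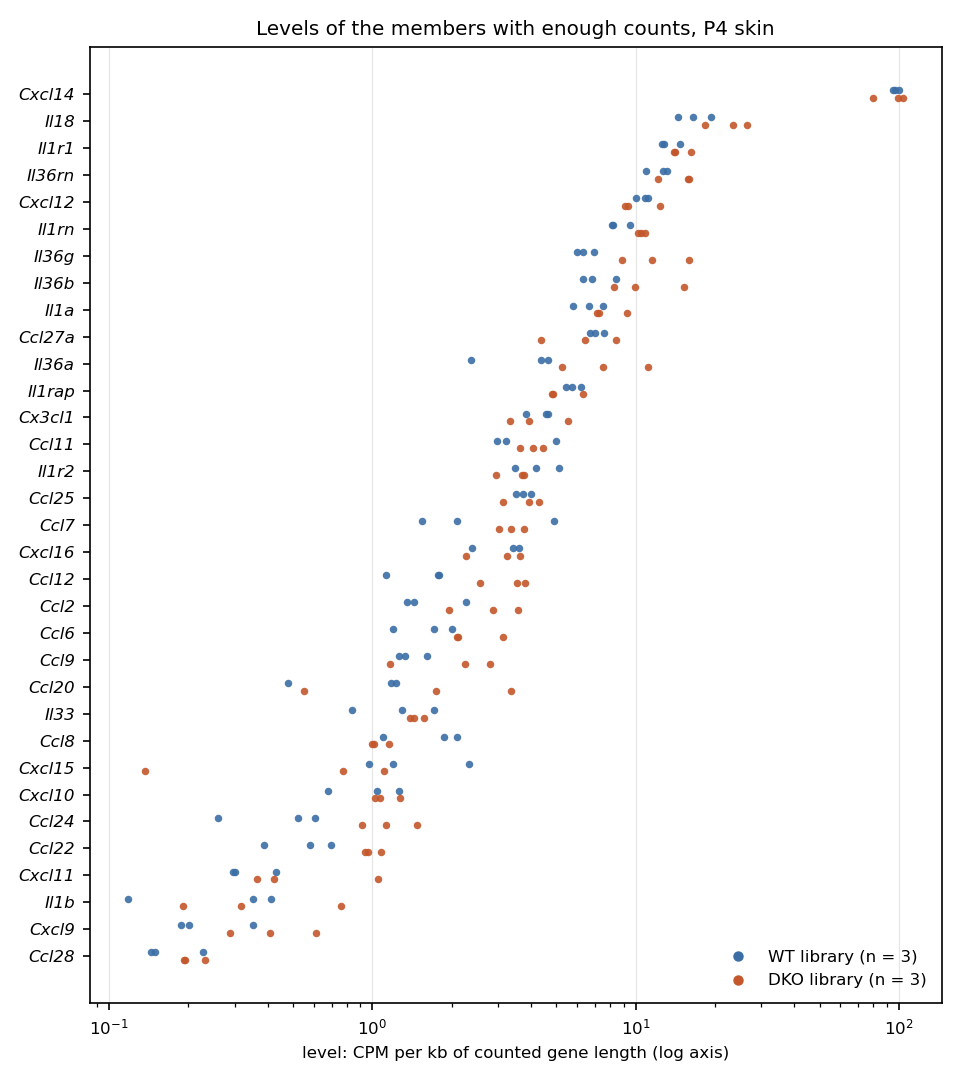
Level of each of the 33 members with enough counts, in CPM per kb of counted gene length on a log axis; each point is 1 library, blue for WT and orange for DKO. *Cxcl14* lies apart near 100, and the points of most genes below it intermingle between genotypes.

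All 3 IL-36 agonists were higher in DKO at an unadjusted p under 0.05, and none of them passed after adjustment. *Il36g* (ENSMUSG00000044103, GRCm38 chromosome 2, 24186476 to 24193568), which encodes the agonist IL-36 gamma, was at 11.5, 9.84 and 10.4 CPM in WT replicates 1 to 3 and at 26.2, 14.6 and 19.0 CPM in DKO replicates 1 to 3. Every DKO library lay above every WT library, and DKO replicate 1 was the highest. Its log2 fold change (± SE) was 0.91 ± 0.22 and a 95% interval of 0.42 to 1.40 (unadjusted p = 0.00213, adjusted p = 0.267, edgeR). With DESeq2 the log2 fold change was 0.90 and the adjusted p was 0.0317. With no filter on low counts edgeR gave an adjusted p of 0.0196. *Il36g* was the only member below an adjusted p of 0.05 in DESeq2, a mark that 1.15% of all genes with an adjusted p reached, and its fold stayed under the threshold of 1.

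*Il36a* (ENSMUSG00000026984, chromosome 2, 24215418 to 24225702), the gene of IL-36 alpha, was at 4.10, 3.86 and 2.09 CPM in WT and 9.87, 4.65 and 6.62 CPM in DKO. The groups did not overlap, though DKO replicate 2 was close to the upper WT values. The log2 fold change (± SE) was 1.07 ± 0.345 (unadjusted p = 0.0116, adjusted p = 0.434, edgeR). *Il36b* (ENSMUSG00000026985, chromosome 2, 24153161 to 24160519), the gene of IL-36 beta, was at 10.3, 8.33 and 7.67 CPM in WT and 18.6, 12.1 and 10.03 CPM in DKO. Here DKO replicate 3 lay just under WT replicate 1, and the groups overlapped. The log2 fold change (± SE) was 0.63 ± 0.248 (unadjusted p = 0.0299, adjusted p = 0.568, edgeR). DKO replicate 1 held the highest value of all 3 agonists. Without it the log2 fold changes in edgeR were 0.66 for *Il36g*, 0.75 for *Il36a* and 0.33 for *Il36b*, the last with an unadjusted p of 0.155. Among only the libraries whose titles carry the number 47347, edgeR gave log2 fold changes of 0.64 for *Il36g* (unadjusted p = 0.0205), 0.49 for *Il36a* (unadjusted p = 0.142) and 0.23 for *Il36b* (unadjusted p = 0.347).

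The antagonist of the same receptor had a smaller fold change, and the difference from the agonists was tested only as a ratio. *Il36rn* (ENSMUSG00000026983, chromosome 2, 24276954 to 24283426) was at 57.2, 49.3 and 58.9 CPM in WT and 71.1, 71.9 and 54.4 CPM in DKO. DKO replicate 3 lay inside the WT range, and its log2 fold change of 0.26 had a 95% interval of -0.08 to 0.60. The summed level of the 3 agonists per kb, divided by that of *Il36rn*, was 1.57, 1.57 and 1.14 in WT and 2.68, 1.51 and 2.25 in DKO. The ratio overlapped between groups through DKO replicate 2, and an exact two-sided permutation test over the 6 libraries gave p = 0.3, where the smallest p that this design allows is 0.1. Its value adjusted over the 3 ratios tested was 0.45. *Il1rl2*, the receptor of the IL-36 ligands, was at 86.1 to 91.9 CPM in WT and 89.4 to 103 CPM in DKO, with overlapping groups.

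**Figure D3:**
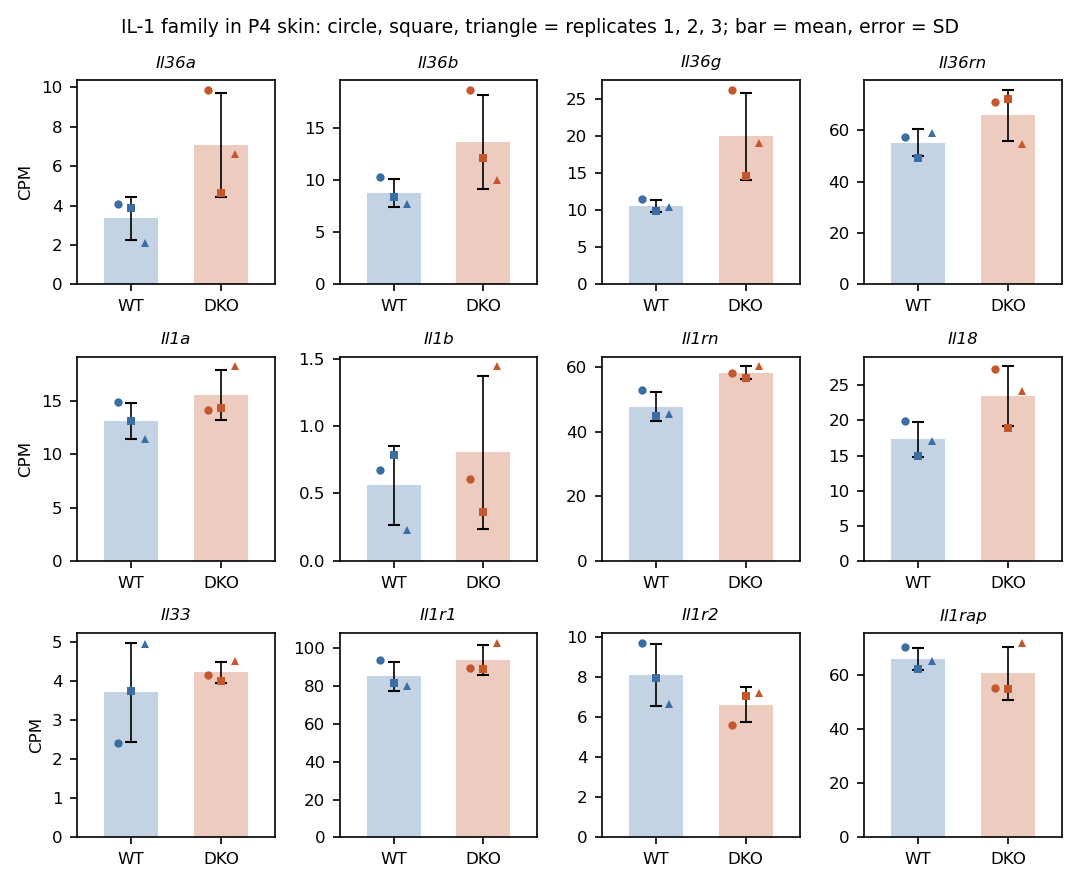
CPM of 12 interleukin-1 family genes by genotype; each bar starts at 0 and shows the mean of 3 libraries, the error bar is the SD, and the circle, square and triangle are replicates 1, 2 and 3. In the panels of *Il36a*, *Il36g* and *Il1rn* every DKO symbol lies above every WT symbol, and in the panels of *Il1b*, *Il33* and *Il1rap* the symbols intermingle.

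The IL-36 genes and *Il1rn* lie close together on the + strand of chromosome 2, with the start of *Il1rn* 184 kb from that of *Il36b*. *Il1a* and *Il1b* lie far along the same chromosome on the - strand. The 250 bases before the first RefSeq start site (GRCm38.p6) follow for *Il1rn* and the IL-36 genes that have an entry. They are shown because these members all had positive log2 fold changes. Genes of this stretch outside the list of members were not read. Capitals mark a match to the AP-1 motif TGANTCA, and *Il36a* has no entry.
Il36b (chr2:24152922-24153171, + strand): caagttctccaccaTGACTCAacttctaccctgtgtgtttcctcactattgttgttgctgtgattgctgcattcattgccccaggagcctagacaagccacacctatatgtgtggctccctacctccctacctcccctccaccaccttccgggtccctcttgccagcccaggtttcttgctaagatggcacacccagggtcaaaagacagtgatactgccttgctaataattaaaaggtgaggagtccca
Il36g (chr2:24186226-24186475, + strand): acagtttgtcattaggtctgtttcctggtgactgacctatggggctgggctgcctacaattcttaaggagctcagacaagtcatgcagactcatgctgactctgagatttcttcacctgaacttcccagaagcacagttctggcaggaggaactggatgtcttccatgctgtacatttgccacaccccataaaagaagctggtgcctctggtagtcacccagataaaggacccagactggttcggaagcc
Il36rn (chr2:24276704-24276953, + strand): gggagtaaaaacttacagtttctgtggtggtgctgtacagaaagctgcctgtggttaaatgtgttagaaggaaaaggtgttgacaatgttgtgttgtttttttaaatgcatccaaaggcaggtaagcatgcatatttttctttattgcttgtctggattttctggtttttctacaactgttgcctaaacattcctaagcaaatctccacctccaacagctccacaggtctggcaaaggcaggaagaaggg
Il1rn (chr2:24336610-24336859, + strand): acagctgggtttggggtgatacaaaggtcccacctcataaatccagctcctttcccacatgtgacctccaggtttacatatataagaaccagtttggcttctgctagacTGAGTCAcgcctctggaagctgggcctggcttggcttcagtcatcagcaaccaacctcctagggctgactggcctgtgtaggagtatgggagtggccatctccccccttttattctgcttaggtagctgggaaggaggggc
The window of *Il36b* ends inside the gene as annotated in GENCODE by a few bases, as does that of *Il1rn*. The AP-1 match spans positions -236 to -230 in *Il36b* and -141 to -135 in *Il1rn*, counted from the base before the start site as -1. The windows of *Il36g* and *Il36rn* shown here hold none of the 4 motifs searched on both strands, which were TGANTCA for AP-1, GCCNNNGGC for AP-2, TATAAA for the TATA box and the NF-kappaB consensus. Of the later start sites, that of *Il36rn* has an AP-2 match, and both of *Il1rn*, with windows from 24345041 and 24345121, hold none of the 4 motifs.

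A promoter window was found for 26 of the 33 genes. An AP-1 match lay in 6 of them (*Ccl27a*, *Ccl9*, *Cxcl10*, *Il1a*, *Il1rn* and *Il36b*), against 7.82% of 27025 genes with a window. The AP-2 letters, whose factors are known to bind KCTD1, were in 5 (*Ccl27a*, *Cx3cl1*, *Il1r1*, *Il33* and *Il36rn*), against 15.4% of genes. An NF-kappaB match was in 4 (*Ccl20*, *Ccl9*, *Cxcl10* and *Il1r1*), against 8.23%, and TATAAA was in 11, against 14.3%. These matches describe letters and were not tested.

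Among the other ligands of the family, *Il18* and the antagonist *Il1rn* came nearest to a difference. *Il18* (ENSMUSG00000039217, chromosome 9, 50554827 to 50581840), a keratinocyte cytokine released after caspase-1 cleavage, was at 19.9, 14.9 and 17.1 CPM in WT and 27.4, 19.0 and 24.1 CPM in DKO. Only DKO replicate 2 fell inside the WT range, and the log2 fold change (± SE) was 0.44 ± 0.185 (unadjusted p = 0.0392, adjusted p = 0.627, edgeR). *Il1rn* (ENSMUSG00000026981, chromosome 2, 24336853 to 24351494) was at 52.8, 44.9 and 45.4 CPM in WT and 58.1, 56.5 and 60.2 CPM in DKO. The groups did not overlap, but the difference was small, with a log2 fold change (± SE) of 0.29 ± 0.129 (unadjusted p = 0.0502, adjusted p = 0.666, edgeR).

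*Il1a*, the stored alarm cytokine of keratinocytes, was at 14.8, 13.1 and 11.4 CPM in WT and 14.1, 14.3 and 18.2 CPM in DKO. Its groups overlapped, and the 95% interval of its log2 fold change ran from -0.15 to 0.65. *Il1b*, the inducible ligand made mainly by myeloid cells, was near the limit of detection, with 10, 14 and 4 counts in WT and 7, 5 and 22 counts in DKO. Its log2 fold change of 0.55 rested on DKO replicate 3, and without that library it was -0.22. *Il33*, a nuclear alarmin, was at 2.42, 3.75 and 4.96 CPM in WT and 4.16, 3.997 and 4.53 CPM in DKO, so the DKO values lay inside the WT range. The ratio of *Il1rn* to *Il1a* per kb was 1.30 ± 0.101 (SD, n = 3) in WT and 1.35 ± 0.153 in DKO. The exact two-sided permutation test gave p = 0.8 for that ratio, where the smallest possible p is 0.1.

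None of the 3 receptor genes among the members passed the test. *Il1r1*, the signaling receptor, was at 94.0, 81.5 and 80.2 CPM in WT and 89.8, 89.0 and 103 CPM in DKO, with a 95% interval of the log2 fold change of -0.15 to 0.43. *Il1r2*, a decoy that binds IL-1 without signaling, was at 9.74, 7.997 and 6.65 CPM in WT and 5.63, 7.05 and 7.21 CPM in DKO, with an interval of -0.78 to 0.20. Divided by *Il1r1* per kb, *Il1r2* was lower in every DKO library, at 0.345, 0.327 and 0.277 in WT and 0.209, 0.264 and 0.234 in DKO. The exact two-sided permutation test gave p = 0.1 for this ratio, the smallest value that 3 libraries against 3 can give, and 0.3 after adjustment over the 3 ratios. *Il1rap*, the shared co-receptor, was at 70.3, 62.0 and 65.0 CPM in WT and 55.0, 54.8 and 71.7 CPM in DKO, and its interval of -0.45 to 0.21 spanned 0.

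Among the CC chemokines, *Ccl24*, *Ccl12* and *Ccl22* had the smallest p-values, all at low counts. *Ccl24* (ENSMUSG00000004814, chromosome 5, 135569937 to 135573049), or eotaxin-2, which attracts eosinophils through CCR3, had 5, 14 and 12 counts in WT and 22, 20 and 18 counts in DKO. In CPM these were 0.336, 0.783 and 0.676 against 1.91, 1.45 and 1.18, so every DKO library was higher. The log2 fold change (± SE) was 1.30 ± 0.43 (unadjusted p = 0.0135, adjusted p = 0.458, edgeR). *Ccl12* (ENSMUSG00000035352, chromosome 11, 82101845 to 82103400), a monocyte chemokine acting on CCR2, had 9, 17 and 17 counts in WT and 22, 19 and 31 counts in DKO. Its levels of 0.604, 0.951 and 0.958 CPM lay below those of 1.91, 1.38 and 2.03 CPM, with a log2 fold change (± SE) of 1.06 ± 0.368 (unadjusted p = 0.0167, adjusted p = 0.485, edgeR).

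*Ccl22* (ENSMUSG00000031779, chromosome 8, 94745590 to 94751699), a dendritic cell and macrophage product that draws T cells through CCR4, was at 1.34, 1.62 and 0.902 CPM in WT and 2.51, 2.18 and 2.23 CPM in DKO. The groups did not overlap, and the log2 fold change (± SE) was 0.83 ± 0.332 (unadjusted p = 0.0315, adjusted p = 0.577, edgeR). *Ccr4*, its receptor, went the other way, at 3.42, 3.69 and 5.30 CPM in WT and 1.91, 2.40 and 2.89 CPM in DKO. That log2 fold change was -0.78 with an unadjusted p of 0.0232 and an adjusted p of 0.529 in edgeR. *Ccl6*, which acts on myeloid cells, was at 2.15, 3.08 and 3.61 CPM in WT and 5.63, 3.78 and 3.80 CPM in DKO. Every DKO library was higher, by a small margin for replicates 2 and 3, and edgeR gave a log2 fold change of 0.57 and an unadjusted p of 0.0809.

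The genes of the monocyte chemokine cluster on chromosome 11 had values in both directions. *Ccl2* was at 1.54, 2.57 and 1.63 CPM in WT and 4.07, 3.27 and 2.23 CPM in DKO. The interval of its log2 fold change of 0.72 was -0.04 to 1.48. *Ccl7* was at 1.68, 3.91 and 1.24 CPM in WT and 2.42, 2.69 and 3.02 CPM in DKO, with the DKO values inside the WT range. *Ccl11*, an eotaxin like *Ccl24*, was at 3.22, 3.47 and 5.41 CPM in WT and 4.42, 4.80 and 3.93 CPM in DKO, and these too lay inside the WT range. *Ccl8* passed 10 counts only in WT, with 16, 10 and 17 counts against 6, 7 and 9 in DKO. It did not pass edgeR's filter, and DESeq2, which fitted it, gave a log2 fold change of -0.68 and an unadjusted p of 0.311. In this cluster, then, *Ccl12* was higher in every DKO library, *Ccl2* and *Ccl7* overlapped, and *Ccl8* had the higher counts in WT.

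*Ccl20*, a keratinocyte chemokine that acts on CCR6, was spread widely among the DKO libraries, at 0.779, 2.47 and 4.79 CPM, against 1.75, 1.68 and 0.676 CPM in WT. DKO replicates 1 and 3 were near the lowest and at the highest value of all libraries. Its log2 fold change was 1.00 with an unadjusted p of 0.119 in edgeR, against 1.41 with an unadjusted p of 0.008 without DKO replicate 1 and 0.28 without DKO replicate 3. *Ccl27a*, the keratinocyte ligand of CCR10, was at 15.9, 18.0 and 16.6 CPM in WT and 10.4, 20.1 and 15.3 CPM in DKO. *Ccl9* had a log2 fold change of 0.55, *Ccl28* of 0.24 and *Ccl25* of 0.01, with unadjusted p-values of 0.108 to 0.942 in edgeR and overlapping groups.

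**Figure D4:**
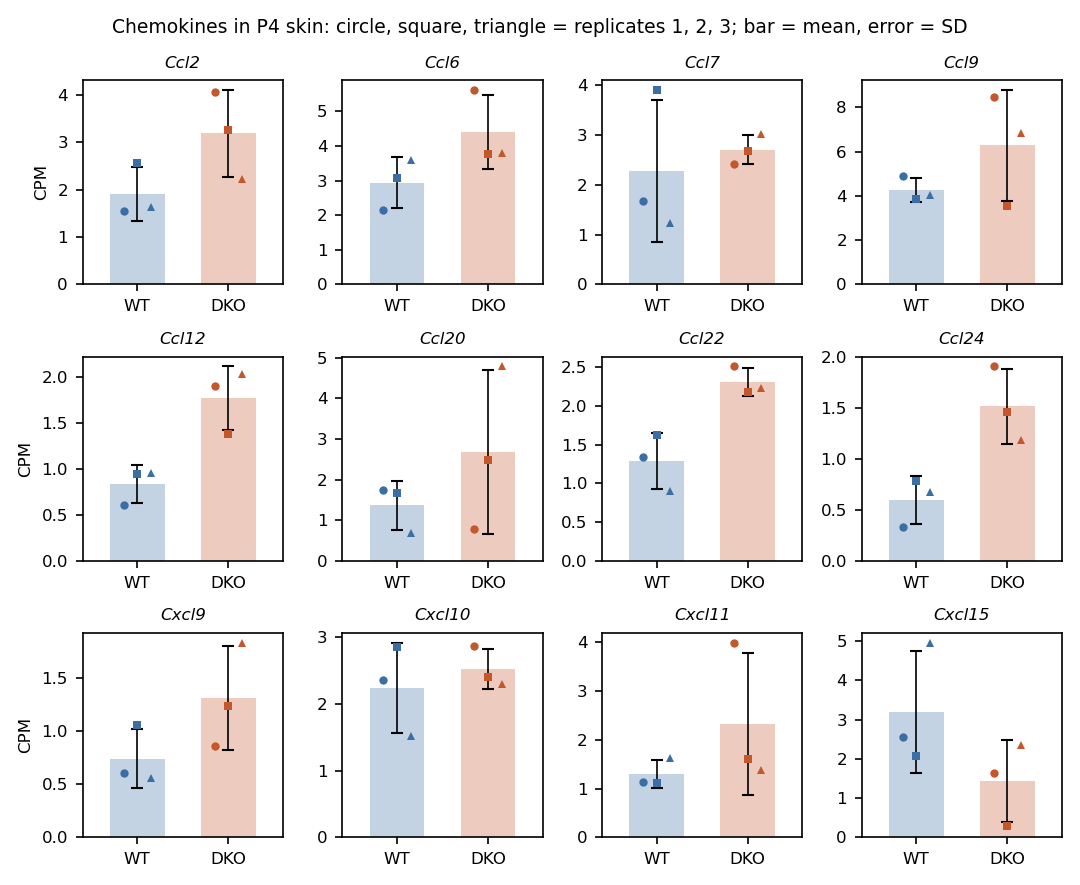
CPM of 12 chemokine genes by genotype; each bar starts at 0 and shows the mean of 3 libraries, the error bar is the SD, and the circle, square and triangle are replicates 1, 2 and 3. *Ccl12*, *Ccl22*, *Ccl24* and *Ccl6* show every DKO symbol above every WT symbol, and the triangle of DKO replicate 3 carries the mean of *Ccl20*.

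The abundant CXC chemokines differed little. *Cxcl14* was at 183, 177 and 173 CPM in WT and 145, 190 and 181 CPM in DKO, with a log2 fold change of -0.04 and a 95% interval of -0.34 to 0.25. *Cxcl12*, the fibroblast ligand of CXCR4, was at 91.5, 81.7 and 88.5 CPM in WT and 74.7, 101 and 76.2 CPM in DKO, with an interval of -0.39 to 0.28. DKO replicate 1 was the lowest library for both. *Cx3cl1* and *Cxcl16*, which are made as membrane-bound chemokines, had log2 fold changes of -0.02 and -0.03. Intervals this wide still hold differences in either direction.

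The CXCR3 ligands *Cxcl9*, *Cxcl10* and *Cxcl11*, which interferon induces, were low, and none passed the test. *Cxcl9* was at 0.604, 1.06 and 0.564 CPM in WT and 0.866, 1.24 and 1.84 CPM in DKO. *Cxcl11* was at 1.14, 1.12 and 1.63 CPM in WT and 3.98, 1.599 and 1.38 CPM in DKO, so that its log2 fold change of 0.81 fell to 0.18 without DKO replicate 1. *Cxcl10* was at 2.35, 2.85 and 1.52 CPM in WT and 2.86, 2.40 and 2.30 CPM in DKO, with overlapping groups. Of 24 interferon response genes tested, 11 had positive and 13 negative log2 fold changes, with a median of -0.00, and 2 were lower at an unadjusted p under 0.05, *Isg15* (log2 fold change -1.05, unadjusted p = 0.0241) and *Ifit1* (-0.92, 0.0416). The member with the lowest log2 fold change was *Cxcl15*, known from lung epithelium. It was at 2.55, 2.07 and 4.96 CPM in WT and 1.65, 0.291 and 2.36 CPM in DKO. Its log2 fold change was -1.15, in a 95% interval of -2.45 to 0.15 (unadjusted p = 0.0775, adjusted p = 0.749, edgeR). The unadjusted p of *Cxcl15* was 0.0457 with DESeq2 and 0.00856 in edgeR with no filter on low counts, and the adjusted p was 0.691 and 0.33. DKO replicate 2, with 4 counts, and WT replicate 3, with 88, set its size, and without the latter it was -0.68.

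The remaining 20 matched genes stayed under 10 counts in 3 libraries. The neutrophil chemokines *Cxcl1*, *Cxcl2*, *Cxcl3* and *Cxcl5* reached at most 9, 11, 2 and 6 counts in any library. *Tslp*, a keratinocyte cytokine that promotes type 2 responses, had 4, 3 and 4 counts in WT and 9, 9 and 12 counts in DKO. Every DKO library was higher, from a WT level near the limit of detection, and the gene did not pass edgeR's filter. DESeq2 gave *Tslp* a log2 fold change of 1.74 (unadjusted p = 0.0344, no adjusted value), and edgeR with no filter gave 1.70 (unadjusted p = 0.0231, adjusted p = 0.553). *Xcl1*, a T and NK cell chemokine, had 9, 6 and 3 counts in WT against 0, 3 and 2 in DKO. *Cxcl17* reached 14 counts in WT replicate 3 and at most 9 elsewhere. *Ccl3*, *Ccl4*, *Ccl5*, *Ccl17*, *Ccl19*, *Cxcl13*, *Ccl1* and *Ccl19-ps1* reached at most 8 counts. *Ccl21a*, *Ccl21b*, *Ccl26*, *Ccl27b* and *Ccl19-ps3* were at 0 in all 6 libraries, which allows up to 0.168 to 0.26 CPM in each. *Ccl21a*, *Ccl21b*, *Ccl27b* and *Ccl19-ps3* have near-identical copies on chromosome 4 among which reads can be lost, so a 0 there does not show that the gene was silent.

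Which library held the extreme values differed among the members. Of the 32 tested genes, 13 were highest in DKO replicate 1, 6 in DKO replicate 2 and 8 in DKO replicate 3, while 1, 1 and 3 were highest in WT replicates 1 to 3. The lowest value lay in DKO replicate 1 for 6 genes and in DKO replicate 3 for 0. DKO replicate 1 was thus at both ends, highest for the IL-36 agonists and *Ccl24* and lowest for *Cxcl14*, *Cxcl12* and *Ccl27a*. The median deviation of the members from the WT mean was alike in the 3 DKO libraries, at 0.25, 0.25 and 0.26 on the log2 scale. In the WT libraries it was 0.08, -0.00 and -0.05. The WT libraries make up that mean themselves, so their values lie near 0 by construction. The same deviation over all genes was not taken.

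**Figure D5:**
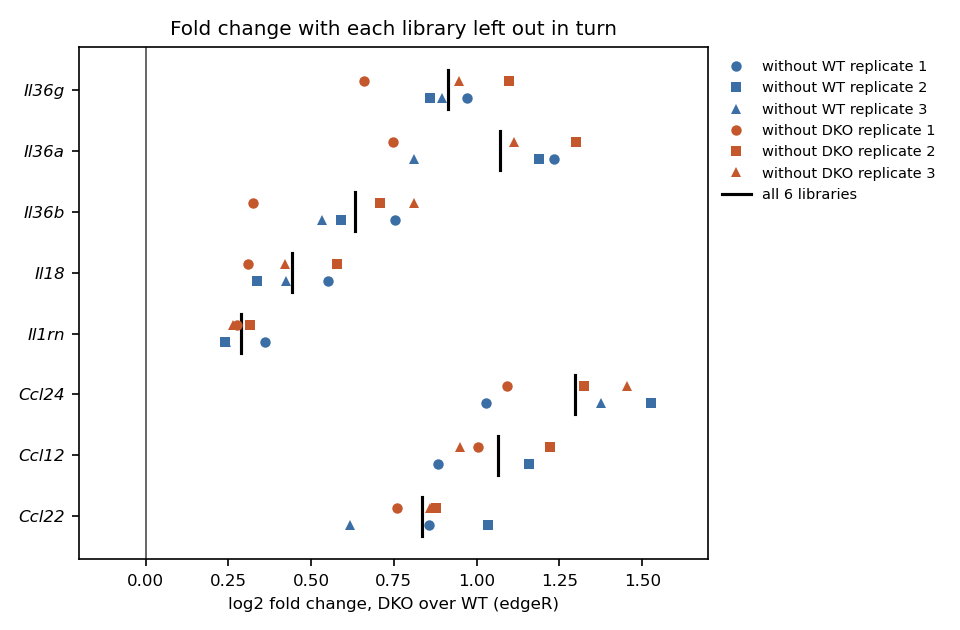
Log2 fold change (DKO over WT, x axis) of 8 members when each library is left out in turn (blue, WT; orange, DKO; circle, square and triangle are replicates 1, 2 and 3), with a black line for all 6 libraries. All points lie above 0, and the orange circles, without DKO replicate 1, are the leftmost for *Il36g*, *Il36a*, *Il36b* and *Il18*.

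The partners of these ligands were read from lists of related genes. Of 14 chemokine receptor genes tested, 8 had positive and 6 negative log2 fold changes, with a median of 0.16. At an unadjusted p under 0.05, 1 was higher, *Ackr1*, the chemokine-binding receptor of venules (2.20 ± 0.519 and 4.78 ± 2.77 CPM, SD, n = 3), and 1 was lower, *Ccr4*. Of 18 genes for other interleukin-1 family receptors, regulators and signal transducers, 14 were positive, the median was 0.10, and 2 were higher at an unadjusted p under 0.05. These were *Il1rl1*, the IL-33 receptor, with a log2 fold change of 0.65 (unadjusted p = 0.016, edgeR), and *Irak3*, an inhibitor of the receptor pathway, with 0.50 (unadjusted p = 0.0174, edgeR). Of 14 inflammasome and cytokine-processing genes, 8 were positive and 1 was higher at that level, *Gsdmc*, a pore-forming gasdermin of epithelia (log2 fold change 0.90, unadjusted p = 5.23e-04, adjusted p = 0.185, edgeR). The NF-kappaB response genes had 18 positive values of 20 and a median of 0.18, but 0 had an unadjusted p under 0.05. Their smallest p was that of *Bcl3*, with a log2 fold change of 0.73 (unadjusted p = 0.0541, edgeR). Of 14 alarmin and stress keratinocyte genes, 12 were positive with a median of 0.93. At an unadjusted p under 0.05 in edgeR, 7 were higher, against 4.96% of all tested genes. The full thresholds were passed by 2, *Stfa2* and *Krt16*, against 0.0694% of all tested genes. This list was chosen with earlier results of these data known, so its counts are not independent support.

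Markers of immune cells that can make these cytokines were read beside them, with 0 called in any of these lists, and their part in the members' values was not tested. Of 13 macrophage and monocyte markers tested, 11 had positive log2 fold changes with a median of 0.15, and their summed level was 225 to 286 CPM in WT and 270 to 334 CPM in DKO. *C1qa* and *Csf1r* were higher in every DKO library, with log2 fold changes of 0.59 and 0.42 (unadjusted p = 0.0225 and 0.0271, edgeR). Of 8 mast cell markers, 7 were positive with a median of 0.38, the summed level was 227 to 244 CPM in WT and 255 to 327 CPM in DKO, and *Fcer1a* was at 0. Only 3 of 12 neutrophil markers had enough counts, and *Ly6g* was at 0. Of the 3, 2 had positive log2 fold changes, with a median of 0.91. The summed level of all 12 was 3.21 to 3.63 CPM in WT and 4.26 to 5.72 CPM in DKO. Of 9 T cell markers, 8 had negative values with a median of -0.23. Their summed level was 22.3 to 23.4 CPM in WT and 14.5 to 23.7 CPM in DKO. At an unadjusted p under 0.05 in edgeR, 2 mast cell markers and 1 neutrophil marker were higher, against 4.96% of all tested genes. At the same p 1 T cell marker was lower, against 2.54%. The summed level of Langerhans and dendritic cell markers was 140 to 157 CPM in WT and 148, 290 and 168 CPM in DKO replicates 1 to 3. These markers had 4 positive and 5 negative values of 9, with a median of -0.11. The 1 of them with an unadjusted p under 0.05 was *Fscn1*, higher in DKO with a log2 fold change of 0.88 (unadjusted p = 0.00279, adjusted p = 0.286, edgeR), while *Cd207*, which marks Langerhans cells, was at 1.04 ± 0.326 CPM (SD, n = 3) in WT and 0.632 ± 0.103 CPM in DKO.

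Markers of structural cells were read as well. Of 15 keratinocyte markers, 8 were positive and 7 negative with a median of 0.01, but the suprabasal keratins *Krt1* and *Krt10* were higher in every DKO library, with log2 fold changes of 0.79 and 0.48, and the basal *Krt15* was lower, at -0.60 (unadjusted p = 6.97e-04, 0.00664 and 0.0168, edgeR). Fibroblast markers had 11 positive values of 12 with a median of 0.35, and blood and lymphatic endothelial markers had 9 of 12 and 8 of 9 with medians of 0.22. Adipocyte markers had 10 positive values of 13 and a median of 0.23, and red blood cell markers 2 of 6 and -0.15. Skeletal muscle markers were positive in 19 of 20 genes with a median of 1.06. Their summed level was 6446 to 7401 CPM in WT and 10462 to 22150 CPM in DKO. At an unadjusted p under 0.05 in edgeR, 16 muscle, 3 adipocyte, 2 fibroblast, 2 blood and 2 lymphatic endothelial markers were higher. In the other direction there was 1 red blood cell marker. Of all tested genes, 4.96% were higher and 2.54% lower at this p. With the muscle markers taken out of the library sizes, the log2 fold changes of *Il36g*, *Il36a*, *Ccl24* and *Ccl12* were 0.90, 1.06, 1.28 and 1.05.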

How the data were processed

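RNA from 6 P4 whole-skin samples was rRNA-depleted and sequenced as paired-end reads. Per the labels and the study's methods, the authors used Trimmomatic 0.36 for trimming, STAR 2.5.2b for mapping to GRCm38, and counted reads per gene by featureCounts of Subread 1.5.2. The deposited values are raw counts for 49315 genes, and a symbol was found for 48970. The strand setting and the treatment of reads with several locations are not given in the sources used here, so *Ccl25*, *Ccl27a*, *Cxcl10*, *Cxcl11*, *Cxcl16*, *Il1a*, *Il1b*, *Il1rap* and *Xcl1*, which overlap genes on the other strand, could share reads with them. Counts of 7 epidermis libraries were 0 throughout and were not used.

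The comparison used edgeR 4.0.16 under R 4.3.3 (filterByExpr, TMM, quasi-likelihood F test, Benjamini-Hochberg adjustment over 20168 genes). A gene was called below an adjusted p of 0.05 with an absolute log2 fold change above 1, the study's thresholds. DESeq2 1.42.0, the study's tool, was an alternative. Both tools were first run on simulated counts in which 200 genes differed by a log2 fold change of 2, and each recovered 200. Those genes had a larger change than any tested member and higher counts than several. The simulation thus does not show how small differences at low counts fare. The ratio tests were not simulated. Standard errors were derived from each F statistic and its fold change. Nothing in the labels says how the mice were related. The study describes the P4 controls as WT littermates and the skin as taken from the back, without saying which mice shared a litter. The main fit held genotype alone, and p-values measure only the spread between these libraries. Replicates were numbered in accession order. Ratios were compared by exact permutation tests, which were not in the plan. With 3 libraries against 3 the smallest p is 0.1, so none of the 3 ratios could have passed 0.05. Values in every library are given for members with an unadjusted p under 0.05 or groups that do not overlap. They are also given for the 6 highest levels per length and for preset family members. Genes of smallest p are named for only some of the related lists. Other members and *Il1rl2* were added after their values were seen. The members and lists were chosen with earlier results of these data known.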

Additional observations from a re-analysis of the deposited data

How the results depend on the processing

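Across the alternatives run, 0 members passed both thresholds. The number of all genes called was 14, against 152 with DESeq2, 22 with total counts in place of TMM, 210 with no filter on low counts, 9 with only the libraries numbered 47347 and 2 to 36 with each library left out (36 without DKO replicate 1, 33 without DKO replicate 2, 3, 2 and 2 without WT replicates 1 to 3 and 4 without DKO replicate 3). Members with an adjusted p under 0.05 at any fold numbered 0 in the main analysis and 1, *Il36g*, with DESeq2, with no filter and with DESeq2 and the replicate block. Members with an unadjusted p under 0.05 numbered 7, and 4 to 10 with each library left out (4 without DKO replicate 1), and 2 with only the libraries numbered 47347. Members with groups that do not overlap numbered 7, and up to 11 with a library left out (11 without WT replicate 1 and without WT replicate 3). With only the libraries numbered 47347 they numbered 13. Fewer libraries make it easier for groups not to overlap. At the unadjusted p and for groups that do not overlap, the share of all genes was taken only in the main fit. The counts under the alternatives, including those with the replicate block, have no such share beside them. The median log2 fold change of the members was 0.23 to 0.33 with each library left out.

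The titles hold a number that libraries of both genotypes share, and the labels do not say what it marks. With this number as a replicate block, edgeR called 35 genes and 9 members had an unadjusted p under 0.05, and DESeq2 with the block called 150 genes, with 4 such members. Deviations from the group means correlated at -0.03 to 0.28 between libraries that share a number and at -0.20 to -0.12 between those that do not. The deviations in a group sum to 0 for each gene. A library therefore cannot correlate positively with every library of the other group, and some negative values arise by construction. What the number marks was not tested.

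Some members changed sign, among them *Il1b* and *Ccl7*, which were at 0.55 and 0.25 with all 6 libraries. With each library left out, log2 fold changes ran from -0.22 to 0.91 for *Il1b*, -0.38 to 0.050 for *Ccl27a*, -0.066 to 0.37 for *Cxcl10*, -0.21 to 0.014 for *Cxcl12*, -0.10 to 0.14 for *Ccl25*, -0.25 to 0.11 for *Cx3cl1*, -0.21 to 0.12 for *Cxcl16*, -0.064 to 0.89 for *Ccl7*, -0.027 to 0.37 for *Ccl11*, -0.12 to 0.048 for *Cxcl14* and -0.048 to 0.44 for *Il33*. With only the libraries numbered 47347 they were 0.037 for *Ccl27a*, -0.17 for *Cxcl10*, 0.015 for *Cxcl12*, -0.051 for *Ccl25*, 0.022 for *Cx3cl1*, -0.0016 for *Ccl7* and 0.024 for *Cxcl14*. *Ccl25* was at -0.017 with total counts, -0.0089 with no filter and -0.0024 with DESeq2 and the block. The cause of these changes was not tested. Of the values for single members and lists under the alternatives, 594 kept their direction and their side of the threshold or stayed within the spread between libraries, 29 changed sign, 3 (all *Il36g*) came under an adjusted p of 0.05, and 3 (the chemokine receptor median) moved beyond that spread. The 594 include 2 alternatives that could only repeat the main analysis. The fit with legacy=TRUE is the default setting, and summing the *Ccl21* and *Ccl27* paralogs added only counts of 0. The smallest adjusted p of a member in the main edgeR analysis was 0.267, so keeping that side of the threshold says little. The fit with legacy=FALSE, the subset numbered 47347, DESeq2 with the block and the count at any fold were added after seeing the data. Low counts limit *Ccl24*, *Ccl12*, *Il1b*, *Cxcl9* and *Ccl28*.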
